A study of Mus musculus with 2 samples.

Results

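The isolated strong peaks of EWS-FLI1 were 249 of the 2563 regions in a peak list from SCOS#2, a cell line from a mouse osteosarcoma induced by EWS-FLI1. A peak was counted as isolated and strong when its deposited score was 45 or more, no other peak centre lay within 10 kb, it lay on chromosomes 1 to 19 or X, and its 1 Mb bin held fewer than 5 peaks. The members were thus chosen by their score and their spacing, and the score is given below as a description only. The comparison set was made of the 1777 isolated peaks in the same kind of bins with a score under 45. All positions are on the mouse build mm9.

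EWS-FLI1 joins the amino-terminal part of EWS, an RNA-binding protein, to the DNA-binding part of FLI1, a transcription factor of the ETS family. ETS factors recognise a short GGAA core, and in human Ewing sarcoma cells the fusion is known to bind both single ETS sites and runs of GGAA repeats, where it can create active enhancers. The fusion carried an HA tag here, and antibody to that tag was used to pull down the chromatin. The data are 1 ChIP library and 1 input library, both from cells held in doxycycline (2 µg/ml) for 72 h. Only the ChIP library carries a processed file. Both libraries come from 1 cell line. No replicate and no culture without doxycycline is part of the samples analysed here, so a value of a single peak has no replicate error and no change on induction could be measured. The promoter behind the doxycycline-controlled gene is not given in the labels. Whether the members hold a GGAA core, a repeat or a nearby gene was not analysed here, so regions are named by position and none of their bases are printed.

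The score threshold was reached by 350 peaks, 13.7% of the list, and 12.3% of the isolated peaks. Since the threshold is part of the rule, nothing is read from these shares. The 101 strong peaks left out comprised 61 with a neighbour within 10 kb, 65 in bins of 5 or more peaks and 19 off the assembled chromosomes 1 to 19 and X, with 37 meeting more than 1 of these conditions. Among the 20 highest scores of the whole list, 14 belonged to isolated strong peaks. That is near their share of the peaks that reached the threshold, 249 of 350, so nothing is read from it. The strong peaks left out had a median width of 1194 bp and a median score of 50.97, against 1009 bp and 51.14 in the isolated ones.

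Most isolated strong peaks were only moderately strong. Their scores ran from 45.04 to 221.58, with quartiles of 47.17 and 57.99. A score under 50 was held by 104 of them, a score from 50 to under 60 by a further 93, and a score of 100 or more by 4. The isolated weak peaks had a median score of 34.15, and the lowest score in the list was 30.01.

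The threshold cuts through a continuous range. The 5 members just inside it had scores of 45.04, 45.07, 45.09, 45.16 and 45.2. The 5 isolated peaks just outside it scored 44.99, 44.94, 44.88, 44.82 and 44.81. The closest case was a pair of nearly identical peaks. The member on chromosome 14 at 110032475 to 110033359 was 885 bp wide and scored 45.04. The peak on chromosome 7 at 27692295 to 27693180 was 886 bp wide and scored 44.99. On the reading of the score described next, both held 13 reads.

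The deposited scores carry no stated scale. They were read as Phred-like values, a negative log10 probability multiplied by 10, with the probability taken from the upper Poisson tail of a whole read count. The background was 1 read per 276.4 bp, held constant below a width of 352 bp. On this reading 1868 scores of the 2563 fell on a whole-read step (tolerance 0.02), and a score of 45 equals a p of 3.16e-05 for a single region, before any correction for the number of regions in a genome. The counts below are called implied reads. They are 1 lower if the peak caller used the strictly larger tail.

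Members held more implied reads than isolated weak peaks, spread over more sequence. The median was 15 implied reads (95% exact binomial interval 15 to 16, range 9 to 35, n = 164 peaks on a step) against 9 (9 to 10, range 7 to 17, n = 1382). The background expected for their width was a median of 3.67 reads against 2.37. Implied reads divided by this background gave a median of 4.12-fold in the members (3.999 to 4.176) and 3.97-fold in the isolated weak peaks (3.94 to 4.002). The counts were thus 1.67 times as high and the enrichments 1.04 times as high. These ratios and all enrichments here hold for the tail used. With counts 1 lower, enrichment would fall more where the expected background is lower, as in the weak peaks. It was not recomputed that way. Of the 164 members on a step, 162 had an enrichment inside the range of the weak peaks, 2.91- to 6.28-fold. The 85 members off the steps have no enrichment value, and many of the highest scores are among them. Only 9 of the 20 highest-scoring members lay on a step, and 3 of the 10 with scores of 80 or more. An enrichment of 5-fold or more was held by 17 of the 164 members (10.4%, 95% Wilson interval 6.57 to 16%) and by 166 of the 1382 weak peaks (12%, 10.4 to 13.8%). These quantities derive from the score that chose the members, so they describe what a score of 45 selects.

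**Figure D1:**
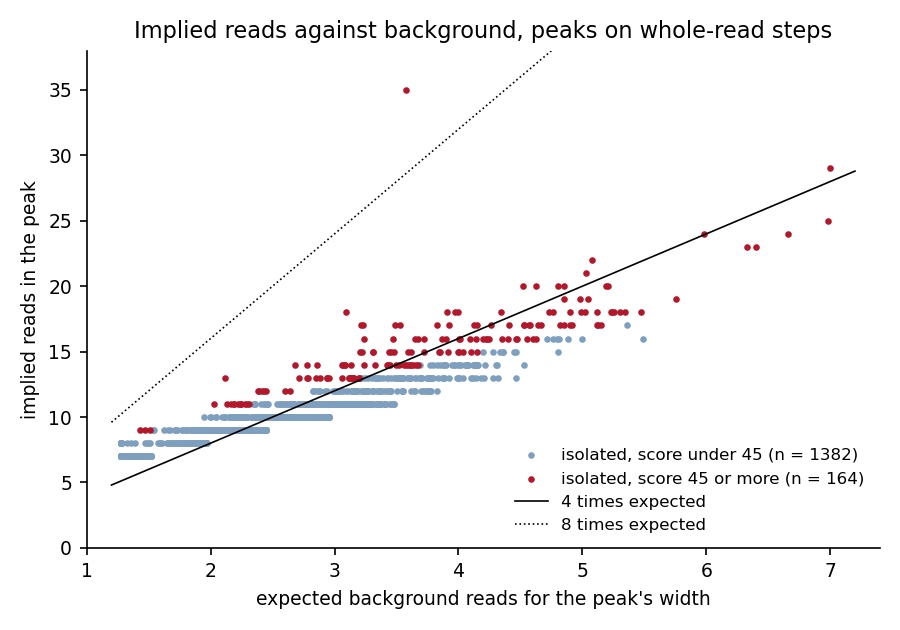
Implied reads (vertical axis) against the background reads expected for the width of each peak (horizontal axis), for isolated peaks whose scores lay on whole-read steps; red points are the 164 members, blue points the 1382 isolated weak peaks, and the lines mark 4 and 8 times the expected background. Both sets lie near the solid line, the members mostly farther along it, and 1 member with 35 implied reads lies above the dotted line.

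At an equal number of implied reads the members were the narrower peaks, as the formula of the score requires. With 11 implied reads, 12 members had a median width of 616.5 bp and 194 weak peaks a median of 839 bp. With 14 implied reads, 23 members had a median of 948 bp and 33 weak peaks a median of 1123 bp. With 16 implied reads the medians were 1153 bp in 22 members and 1330 bp in 7 weak peaks.

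Scores off the whole-read steps were more common among the members. On-step scores made up 65.9% of the members (164 of 249, 95% Wilson interval 59.8 to 71.5%) and 77.8% of the isolated weak peaks (1382 of 1777, 75.8 to 79.6%). In peaks of up to 1 kb, 64.5% of 121 members lay on steps (55.6 to 72.4%) against 80.4% of 1598 weak peaks (78.4 to 82.3%). Above 1 kb the order was the opposite, with 67.2% of 128 members (58.7 to 74.7%) against 54.2% of 179 weak peaks (46.9 to 61.3%). Whether the local background of off-step peaks was higher was not tested.

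Isolated strong peaks were wider than isolated weak ones. Their median width was 1009 bp (95% exact binomial interval 961 to 1085 bp, quartiles 816 and 1291 bp, n = 249) against 669 bp (661 to 676 bp, quartiles 553 and 835 bp, n = 1777). The difference was 340 bp, and the 2 intervals did not overlap. More than 1 kb was spanned by 128 members (51.4%, 95% Wilson interval 45.2 to 57.5%) and by 179 weak peaks (10.1%, 8.76 to 11.6%), against 15.2% of all isolated peaks. More than 2 kb was spanned by 5 members and 3 weak peaks. The score is computed from width, so width is not independent of the rule, and no test was made. Intervals over peaks cover counting error within this 1 library only.

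Median width was 657 bp in the isolated peaks with scores under 32, 632 bp from 32 to under 36 and 733 bp from 36 to under 40. It was 846 bp in the 216 isolated peaks with scores from 40 to under 45, 950 bp in the 104 from 45 to under 50, 1103 bp in the 93 from 50 to under 60, and 1169.5 bp in the 42 from 60 to under 80. The 10 members with a score of 80 or more had a median of 922 bp, with an interval of 674 to 1935 bp that is too wide to place them above or below the others. Across the 249 members, which share 1 library and 1 background, width correlated only weakly with score (Spearman's rho 0.24, Pearson's r on log10 values 0.22). Without the 2 widest peaks these coefficients were 0.22 and 0.17.

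**Figure D2:**
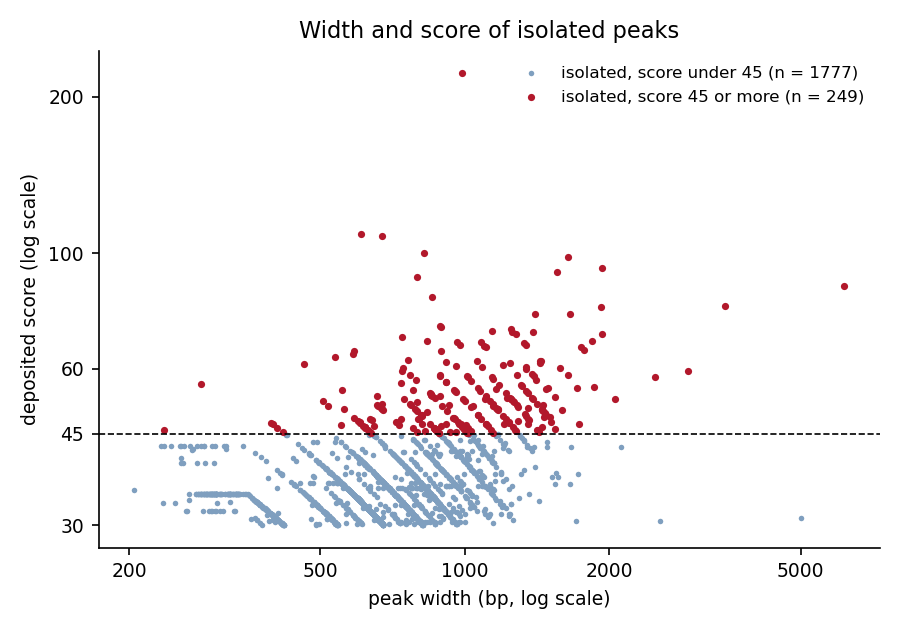
Deposited score against peak width, both on log scales, for the 249 members (red) and the 1777 isolated weak peaks (blue); the dashed line marks the score of 45. The 1382 weak peaks on whole-read steps (77.8%) fall along parallel bands, 1 for each whole number of reads, and the others lie off them. Members at scores of 60 to under 80 have a median width of 1169.5 bp. The 4 members with scores of 100 or more are all narrower than 1 kb.

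The highest-scoring members included both compact and broad peaks. Of the 20 members with the highest scores, 8 were narrower than 1 kb, and 9 were the only peak of their megabase. Of all 249 members, 121 were up to 1 kb wide and 93 (37.3%) were the only peak of their megabase. The counts in the 20 are near these shares, so nothing is read from them. The 20 lay on 11 chromosomes, with 4 on chromosome 17, 3 each on chromosomes 1 and 14, and 2 each on chromosomes 4 and 16. Of all 249 members, chromosomes 17, 1, 14, 4 and 16 held 9, 24, 17, 8 and 9. Whether the 20 were spread unevenly was not tested.

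The 4 highest scores among the members belonged to peaks narrower than 1 kb that lay 466 kb or more from any other. Among all 249 members the median distance was 389 kb, and 60.2% had another centre within 500 kb. Widths of up to 1 kb were held by 121 of them, so nothing is read from these 4. The whole list held 6 peaks with a score of 100 or more. Its highest score, 230.72, belonged to a strong peak that the rule left out. The highest-scoring member, at 4625876 to 4626863 on chromosome 17, had 35 implied reads over 3.57 expected (9.79-fold). Its neighbours lay 542 kb and 1808.1 kb away, and the nearer of them scored only 31.96. The second, at 129634662 to 129635270 on chromosome 4, was 609 bp wide and had no other peak within 1168.7 kb, the nearer neighbour scoring 30.01. The third, at 108872856 to 108873529 on chromosome 11, was 674 bp wide and had no peak within 1547.5 kb. The fourth, at 78570253 to 78571074 on chromosome 1, was 822 bp wide, and its nearest peak lay 466 kb away. The first scored 221.58, and the second to the fourth 108.9, 108.03 and 100.01. These last 3 scores lay off the steps, so they have no implied reads.

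The members ranked next by score included much broader peaks. The fifth, at 8850048 to 8851691 on chromosome 14, scored 98.14 over 1644 bp and was the least isolated of the 20, with a weak peak (score 35.11) 12.3 kb away. The member at 139147214 to 139149148 on X scored 93.63 over 1935 bp. Its 29 implied reads over 7 expected made only a 4.14-fold enrichment, below that of the narrower member at 146398038 to 146398893 on chromosome 6, which scored 82.38 over 856 bp with 18 implied reads (5.81-fold). Among the other members in the first 14 ranks, the one at 21504799 to 21506353 on chromosome 2 spanned 1555 bp and scored 91.98, and the one at 13952816 to 13953612 on chromosome 13 spanned 797 bp and scored 89.92. On chromosome 4, the member at 122387528 to 122389447 spanned 1920 bp and scored 78.98. These 3 lay off the steps. The members at 112073433 to 112074835 on chromosome 1 and at 125187369 to 125189022 on chromosome 14 shared a score of 76.26, with 22 implied reads over 1403 bp (4.33-fold) and 24 over 1654 bp (4.01-fold). Near a score of 72, narrower members had the higher enrichment, as the formula of the score requires when scores are nearly equal. On chromosome 1, the member at 139610677 to 139611565 scored 72.38 with 17 implied reads (5.29-fold). On chromosome 16, the one at 54518785 to 54519676 scored 72.17 with 17 implied reads (5.27-fold). On chromosome 17, the one at 41798661 to 41799910 scored 71.38 with 20 implied reads (4.42-fold) in a bin of 4 peaks. The last of the 20 were at 69371278 to 69372415 on chromosome 14 (score 70.94), 58080028 to 58081281 on chromosome 3 (70.68) and 20919230 to 20920619 on chromosome 16 (70.5). Of these 3, only the last lay on a step, with 21 implied reads (4.18-fold).

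The widest members were few and lay off the steps. The peak at 39979700 to 39985865 on chromosome 17 spanned 6166 bp and scored 86.58, and the one at 29242599 to 29246081 on the same chromosome spanned 3483 bp and scored 78.99. The third widest spanned 2922 bp at 74665642 to 74668563 on chromosome 13 and scored 59.29. Their nearest peaks lay 914 kb, 405 kb and 602 kb away. The narrowest members were 236 bp at 68910787 to 68911022 on chromosome 14 (score 45.76), 283 bp at 109979203 to 109979485 on chromosome 1 (55.97) and 395 bp at 157166934 to 157167328 on chromosome 1 (47.19). Only the last of these lay on a step, with 9 implied reads (6.3-fold), the lowest count found among the members. Overlap of these regions with repeated sequence was not analysed here.

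Spacing did not use the score, although the rule fixes its lower end at 10 kb. The median distance from a member to the nearest other peak centre was 389 kb (95% exact binomial interval 324 to 447 kb, quartiles 152 and 743 kb). It was 375 kb in the isolated weak peaks (359 to 400 kb, quartiles 161 and 816 kb). The intervals overlapped, and the medians differed by 13.3 kb. Members ranged from a peak on X (92138126 to 92139271, score 50.94), whose neighbour lay 10.1 kb away, to a peak on chromosome 11 (37449032 to 37450373, score 60.37), whose nearest neighbour lay 3333.5 kb away. No other peak within 1 Mb on either side was found for 42 members (16.9%, 95% Wilson interval 12.7 to 22%) and 357 weak peaks (20.1%, 18.3 to 22%).

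The 2 sets differed at the short end of the range. Another peak centre within 50 kb was found for 35 members (14.1%, 95% Wilson interval 10.3 to 18.9%) and 147 weak peaks (8.27%, 7.08 to 9.64%), against 8.98% of all isolated peaks. The difference was 5.78 percentage points (95% Newcombe interval 1.77 to 10.8). Within 20 kb the counts were 11 members (4.42%) and 26 weak peaks (1.46%). Within 100 kb they were 51 members (20.5%, 15.9 to 25.9%) and 289 weak peaks (16.3%, 14.6 to 18.1%), against 16.8% of all isolated peaks, and the interval of the difference included 0 (4.22 points, -0.67 to 9.9). From 200 kb on the curves ran close together, with 31.3% and 30.5% at 200 kb and 60.2% and 59.2% at 500 kb. The distances of 20 and 50 kb were singled out after the values had been seen, and peaks that are each other's neighbours are counted on both sides, so the intervals are too narrow.

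**Figure D3:**
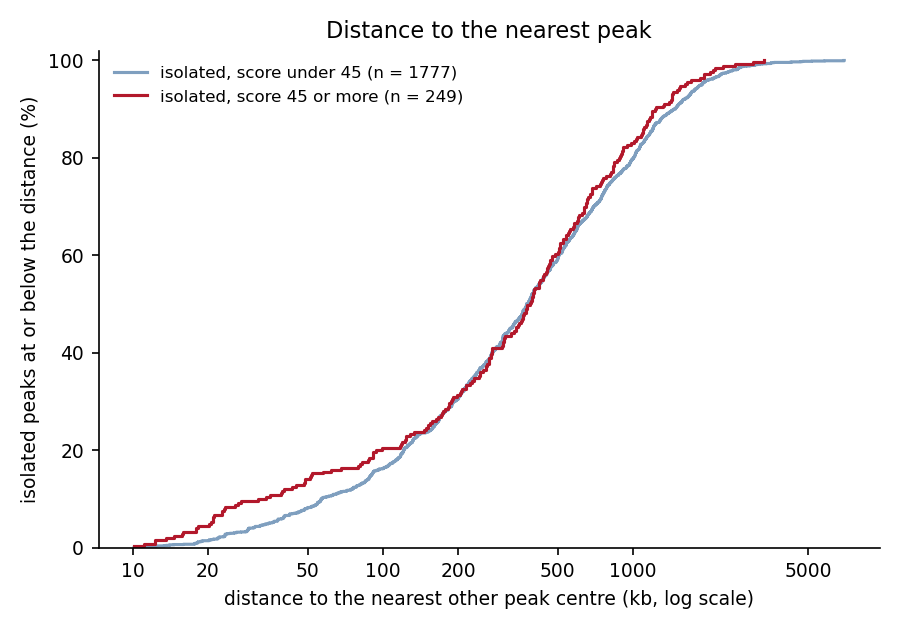
Cumulative share of isolated peaks (vertical axis, %) by distance to the nearest other peak centre (horizontal axis, kb, log scale); red is the 249 members, blue the 1777 isolated weak peaks. The red line lies above the blue one from about 20 to 100 kb, with 14.1% against 8.27% at 50 kb, and both meet by 200 kb.

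The share with a close neighbour is given here by score band. A peak within 50 kb accompanied 17.3% of the isolated peaks with scores from 45 to under 50, 15.1% of those from 50 to under 60, 4.76% of the 42 with scores from 60 to under 80 and 10% of the 10 with higher scores. The bands were not tested against each other. With a score threshold of 50 the difference from the weak peaks at 50 kb was 2.95 percentage points (-1.53 to 9.32), and with a threshold of 60 it turned to -3.3 points (-7.32 to 6.65). At 100 kb the same thresholds gave 1.24 and -5.38 points. Among peaks of 800 up to 1300 bp the shares were 10.1% of 129 members (5.98 to 16.5%) and 6.9% of 507 weak peaks (5 to 9.45%), with overlapping intervals. Without chromosome 2 the difference at 50 kb was 3.74 points and that at 100 kb 2.05 points.

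The scores of the neighbours were compared next. Of the 35 members with a neighbour within 50 kb, 12 had one with a score of 45 or more (34.3%, 95% Wilson interval 20.8 to 50.9%). The count was 24 of 147 in the weak peaks (16.3%, 11.2 to 23.1%). These intervals overlapped, and the distance of 50 kb was singled out after the values had been seen. Over all distances the nearest peak was strong for 40 members (16.1%, 12 to 21.1%) and 219 weak peaks (12.3%, 10.9 to 13.9%), against 12.8% of all isolated peaks. The overall difference was 3.74 points, with an interval from -0.61 to 9.01 that included 0. A pair of strong neighbours contributes to the members' count from both of its peaks.

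The distance from each member to the nearest other member was measured as well. The nearest other member lay a median of 3.01 Mb away (quartiles 1.4 and 7.66 Mb, longest 68.1 Mb). Of the megabase bins, 218 held 1 member, 14 held 2 and 1 held 3. Centres of neighbouring members lay within 100 kb in 6 pairs on 5 chromosomes, which together involve 11 members (4.42%).

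The bin with 3 members was on chromosome 2. The 3 peaks lay at 137172411 to 137173770 (score 47.88), 137193468 to 137194686 (53.9) and 137228008 to 137228611 (47.3), a stretch of 56.2 kb with centres 21 kb and 34.2 kb apart. Their implied reads were 17, 17 and 11. The first 2 were 1360 and 1219 bp wide and the last 604 bp. No other peak of the list lay in that megabase.

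The closest pair of members was on chromosome 7, at 32061065 to 32061913 (score 53.53, 14 implied reads) and 32078984 to 32079701 (47.38, 12 implied reads), with centres 17.9 kb apart. On chromosome 4 a narrow member (648 bp, score 46.52) at 3129878 to 3130525 lay 22.8 kb from a broad one (2486 bp, score 57.87) at 3151709 to 3154194. On chromosome 14 a 634 bp member (score 47.92) at 43386131 to 43386764 lay 48.7 kb from a 1405 bp one (56.99) at 43434396 to 43435800. Neither peak of the chromosome 4 pair nor of the chromosome 14 pair lay on a whole-read step.

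All 20 chromosomes examined held members. Over the spans between the first and last peak of each chromosome, members occurred at 0.0982 per Mb, from 0.0518 per Mb on chromosome 19 (3 members) to 0.162 per Mb on chromosome 5 (24 members). Chromosome 1 held 24 members and X held 19.

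The share of isolated peaks that were strong takes account of the number of isolated peaks on each chromosome. It was highest on chromosomes 7 (16 of 85, 18.8%, 95% Wilson interval 11.9 to 28.4%) and 5 (24 of 131, 18.3%, 12.6 to 25.8%) and lowest on chromosome 4 (8 of 129, 6.2%, 3.18 to 11.8%), against 12.3% of all isolated peaks. Only the intervals of chromosomes 4 and 5 left out that value, 2 of 20 chromosomes, with no correction for looking at 20. Chromosome 11, which had few isolated peaks of any score (40), had a strong share of 15% (6 of 40, 7.06 to 29.1%), with an interval that contained the value of all isolated peaks.

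**Figure D4:**
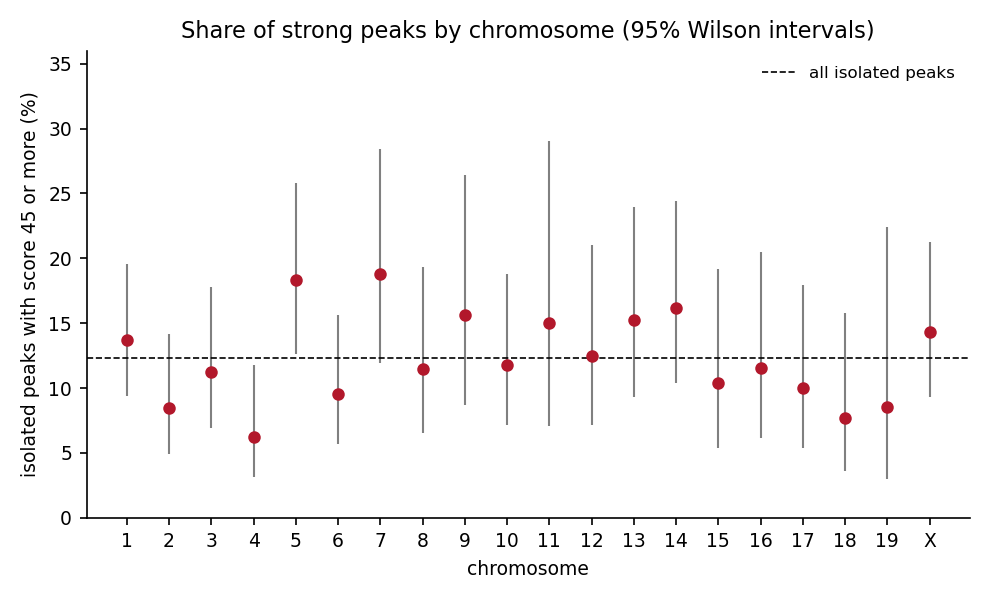
Share of isolated peaks with a score of 45 or more (vertical axis, %) on each chromosome (horizontal axis), with 95% Wilson intervals; the dashed line is the 12.3% of all isolated peaks. Chromosome 4 lies below the line and chromosome 5 above it with intervals that leave it out, and the other 18 intervals contain it.

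Along the chromosomes, members followed the isolated weak peaks except in 1 segment. The span of each chromosome was divided into 10 equal parts, counted from the centromeric end. The first part held 30 members (12%, 95% Wilson interval 8.57 to 16.7%) and 213 weak peaks (12%, 10.6 to 13.6%), against 12% of all isolated peaks. The fourth part held 39 members (15.7%, 11.7 to 20.7%) and 165 weak peaks (9.29%, 8.02 to 10.7%), a difference of 6.38 points (95% Newcombe interval 2.14 to 11.6). These 39 members lay on 18 of the 20 chromosomes, with at most 5 on 1 chromosome. The difference was 3.4 points with a score threshold of 40 (0.27 to 6.99) and 11.3 points among peaks of 800 to 1300 bp (4.81 to 19.2). With a threshold of 60 it was 3.48 points, with an interval from -3.45 to 15.4 that included 0. In the other parts the members' share ran from 8.03% (the eighth) to 9.64%, and every interval of the difference included 0. The fourth part was singled out from 10 after the values had been seen, with no correction for that choice.

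**Figure D5:**
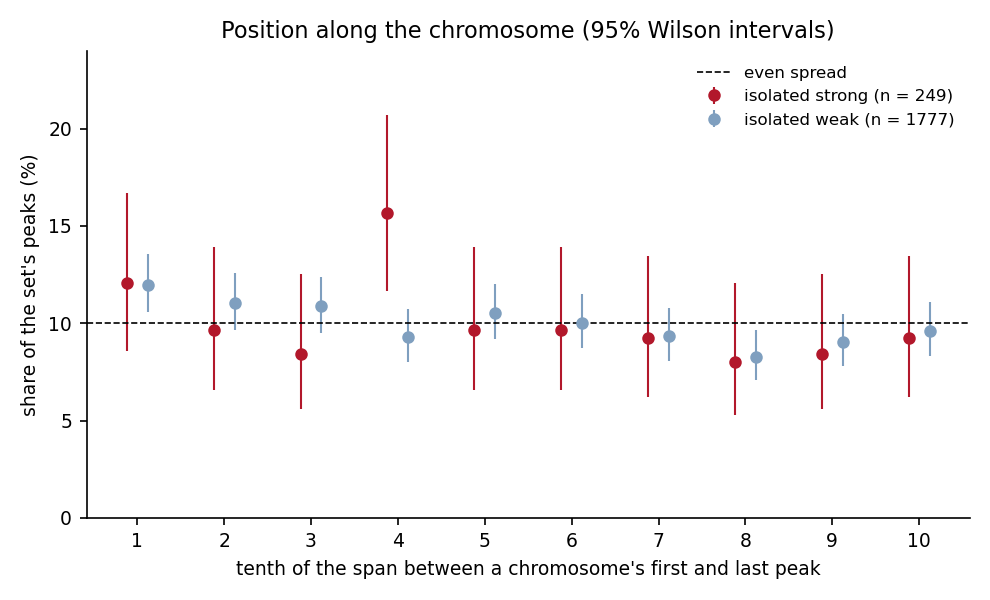
Share of each set (vertical axis, %) by position in 10 equal parts of the span between a chromosome's first and last peak (horizontal axis, 1 nearest the centromere), with 95% Wilson intervals; red is the 249 members, blue the 1777 isolated weak peaks, and the dashed line an even spread. The intervals overlap in every part but the fourth, where 15.7% of the members and 9.29% of the weak peaks lay.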

How the data were processed

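The data are 1 ChIP library and 1 input library of SCOS#2. The submitters' processing notes name cutadapt, Bowtie2 2.2.0 and the build mm9, and MACS appears as the peak caller in the name of the deposited list. For MACS, the version, cutoff and duplicate handling were not stated. The deposited list holds a position, a name and the authors' score per peak, with no scale stated. Read totals are not in it, so depth is unknown.

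Starts were converted to 1-based positions. Distances are between peak centres over the whole list. Implied reads were obtained by setting the commonest score (34.47) to 7 reads and scanning background windows. The best window, 352 bp, put 72.9% of peaks on steps, against at most 6.56% for windows over 5 bp away. In 1332 simulated peaks the script recovered all 716 planted isolated strong peaks and gave 97.8% the right count. The simulated scores were made with the same formula and the same rule. This checks the code only and cannot show that the deposited scores follow that formula. Medians carry exact binomial intervals, shares Wilson intervals and differences of shares Newcombe intervals (95%). No p-value is given, since peaks of 1 library are not replicates. The members and the comparison set were chosen with earlier results of these data known. Named regions are the 20 members with the highest scores, the 3 widest and 3 narrowest members, and those with the nearest and farthest neighbour. The 5 closest pairs of members and, mostly by score alone, the 5 peaks on each side of the threshold are also given. The gene and promoter tables at hand are of another build and were not used. Python 3.11.15, NumPy 2.4.6, pandas 2.3.3 and SciPy 1.17.1 were used.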

Additional observations from a re-analysis of the deposited data

How the results depend on the processing

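Of 120 values recomputed under alternatives, 98 stayed within the interval of the value above (counts within 1.5 times), 19 moved out of it and 3 changed sign. Score thresholds of 40, 50 and 60 kept 465, 145 and 52 members, with median widths of 935, 1105 and 1121.5 bp, differences from the weak peaks of 274, 430 and 437 bp, and 40.2%, 59.3% and 59.6% wider than 1 kb. At 60, the median nearest distance was 454 kb, 11.5% had a peak within 100 kb, and the differences from the weak peaks were -3.3 points at 50 kb and -5.38 points at 100 kb. Requiring no peak within 50 kb lengthened the median to 453 kb and lowered the share within 100 kb to 7.48%, by construction, and gave a difference of -1.24 points there (-4.42 to 3.27). Bins of fewer than 3 peaks gave 504 kb and 11.2%. Widths of 800 to 1300 bp kept 129 members. This setting, peak edges in place of centres, the omission of each chromosome and all alternatives for the differences of shares were chosen after seeing the data. Without any 1 chromosome, the width difference ran from 330 to 347.5 bp and that in the fourth part of the span from 5.56 to 7.34 points. The cause of these shifts was not tested. No paired analysis was possible because the ChIP and the input are single libraries. No depth is known, and 1 library does not show which members would be found again.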
